A study of Arabidopsis thaliana with 21 samples.

Results

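The genes described are 51 class III peroxidases of Arabidopsis thaliana, a family of secreted plant enzymes with a haem group at the active site. They were picked from the count table by locus identifier, from a list of 51 family members that uses no measured value. The list was, however, chosen with earlier results of these data known, and it does not hold every gene of the family. Shares and ranks are over these 51 alone. The table holds 32833 genes, and 45 of the 51 members had enough reads to be tested among 19938 genes. The members lie on all 5 chromosomes, with 18 of them on chromosome 5, 10 each on chromosomes 1 and 4, 7 on chromosome 3 and 6 on chromosome 2. Their reference proteins are 315 to 372 residues long, and the median identity over the 1275 pairs of members is 38.1%. Where the files and the reference annotation give no symbol, a member is called by its locus identifier.

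Class III peroxidases use hydrogen peroxide to oxidise phenolic substrates in the cell wall, and some can also make reactive oxygen species there. In roots they are known for cross-linking wall polymers, which stiffens walls as cells stop elongating, for polymerising lignin in xylem and endodermis, and for loosening walls in growing root hairs. They also take part in the oxidative burst against pathogens.

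The RNA-seq libraries were made from roots sampled before treatment (0 h) and at 6, 12 and 24 h of mock treatment or treatment with AtCEP5, a peptide of the CEP family of secreted root signals. Each of the 7 groups holds 3 libraries, 21 in all, and the samples before treatment are the common start of both courses. By the title of the series, the question is how CEP peptides act on auxin and cytokinin signalling and on root growth. The sources used here do not give the plants' genotype and age, the peptide dose or the content of the mock. Roots are the labelled tissue, and root meristem cell is the labelled cell type. All 6 root meristem markers were detected in every group, with a summed level of 85.6 to 128 CPM (counts scaled to library size), and so were all 9 root hair, 6 xylem and 5 endodermis markers, which mark differentiated tissue. Markers of shoot tissue summed to 152 to 470 CPM in 20 of the 21 libraries and to 2031 CPM in 1 library before treatment.

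Libraries held 10334319 to 14345476 counts, and 0.939 to 1.45% of a library's counts fell on the 51 members. The highest share was in mock 24 h replicate 1, where the members summed to 15130 CPM against 11580 and 9377 CPM in the other mock libraries of that time. That library was the highest of its group for 37 of the 45 tested members. Many counts and group medians at 24 h, and calls that change, are therefore also given without it. Ribosomal RNA was at 2.2% in the second mock library of 6 h and at 1.96% in the third AtCEP5 library of 12 h, while the other 19 libraries had 0.27 to 0.601%. Genes on the opposite strand overlap 7 members (AT1G30870, AT4G08780, AT4G26010, AT4G33420, AT5G14130, AT5G51890 and RHS19), whose counts are uncertain if reads were not counted by strand. Whether replicates came from separate cultures is not stated, and p-values therefore measure a spread between libraries that may be technical.

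A few members made up most of the transcripts of the 51 members. Over all 21 libraries, AT3G32980 had the highest level, with a mean of 1297 FPKM (fragments scaled for transcript length and library size). Its range was 842 to 2155 FPKM, and its mean was 17.7% of the summed FPKM of the 51 members. PRXR1 (AT4G21960) followed at 791 FPKM, AT2G38380 at 657, AT5G64100 at 581 and AT2G37130 at 556. The ranges of neighbours in this order overlapped, and these 5 members held 53.1% of the FPKM of the 51 members, the first 10 76.9%. The lowest tested member was AT1G05250 at 0.713 FPKM. Of the 6 members that were not tested, AT5G58390 and AT5G58400 had 0 reads in all 21 libraries. AT3G50990, known for the release of seed mucilage, had 11 reads in all, and PRXCA (AT3G49110), a peroxidase of the oxidative burst in defence, had 25. AT5G19880 had 52 reads and PRX52 (AT5G05340), a lignin peroxidase, had 61.

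**Figure D1:**
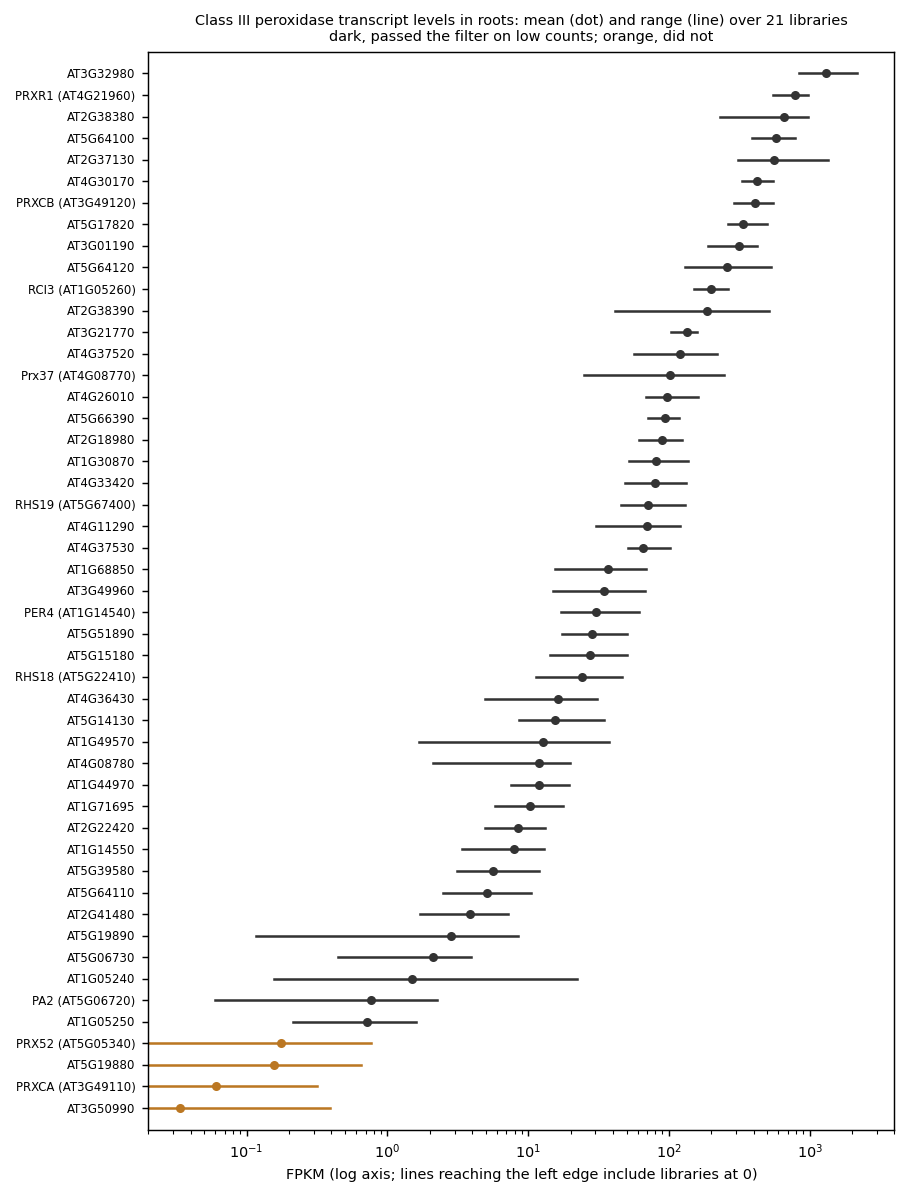
Level of each listed class III peroxidase with reads, in FPKM on a log axis, as the mean (dot) and the lowest to highest library (line) over 21 libraries. AT3G32980 is highest at 1297 FPKM, and the members in orange did not pass the filter on low counts. AT5G58390 and AT5G58400, with 0 reads, have no place on a log axis.

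The comparison of AtCEP5 with mock at the same time asks which members respond to the peptide. At 6 h, 16 of the 45 tested members (35.6%) passed at an adjusted p under 0.05 in edgeR's quasi-likelihood test, 9 higher and 7 lower with AtCEP5. Of all genes tested, 11.3% passed, 5.94% higher and 5.33% lower. At 12 h 9 members passed (20%, 7 higher and 2 lower) against 12.1% of all genes (6.71% higher and 5.41% lower). At 24 h 10 members passed (22.2%, 4 higher and 6 lower) against 7.81% (3.7% higher and 4.12% lower). On the average of the 3 times 22 members passed (48.9%, 10 higher and 12 lower) against 30.3% of all genes (14.8% higher and 15.5% lower). The members' median log2 fold change was −0.06, −0.02 and −0.26 at 6, 12 and 24 h, beside 0.01, −0.02 and 0.00 over all genes tested, so at 6 and 12 h the members' median lay near that of all genes. The 24 h count varied with single libraries, being 4, 7 and 15 if mock replicate 1, 2 or 3 was left out and 5, 7 and 9 if AtCEP5 replicate 1, 2 or 3 was. Without mock replicate 1 the members' median at 24 h was −0.04, and 5.12% of all genes passed. The 4 members called without it were AT1G14550, AT1G49570, AT4G33420 and AT4G37520.

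In all, 21 members passed at 1 time or more, or 46.7%, where 18% of all genes did. Of these 10 were higher and 11 lower with AtCEP5, and no member passed in opposite directions. AT1G49570, AT2G22420, AT4G33420 and AT4G37520 were higher at all 3 times (8.89%; 2.5% of all genes), and AT3G49960 and RHS18 (AT5G22410) were lower at all 3 (4.44%; 1.94%). All 3 AtCEP5 libraries lay on 1 side of all 3 mock libraries for 24 members at 6 h (53.3%; 31.8% of all genes tested), 25 at 12 h (55.6%; 31.8%) and 15 at 24 h (33.3%; 22%). The libraries of 6 h met a rule for pairing by replicate number, a correlation over 0.1, which some unmatched libraries of 24 h also exceeded. With the replicate number as a block on those 6 libraries, 21 members passed at 6 h, 11 higher and 10 lower, 15 of them in common with the fit without the block. This is 47.7% of the 44 members tested there, and 25.2% of all genes tested there passed.

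**Figure D2:**
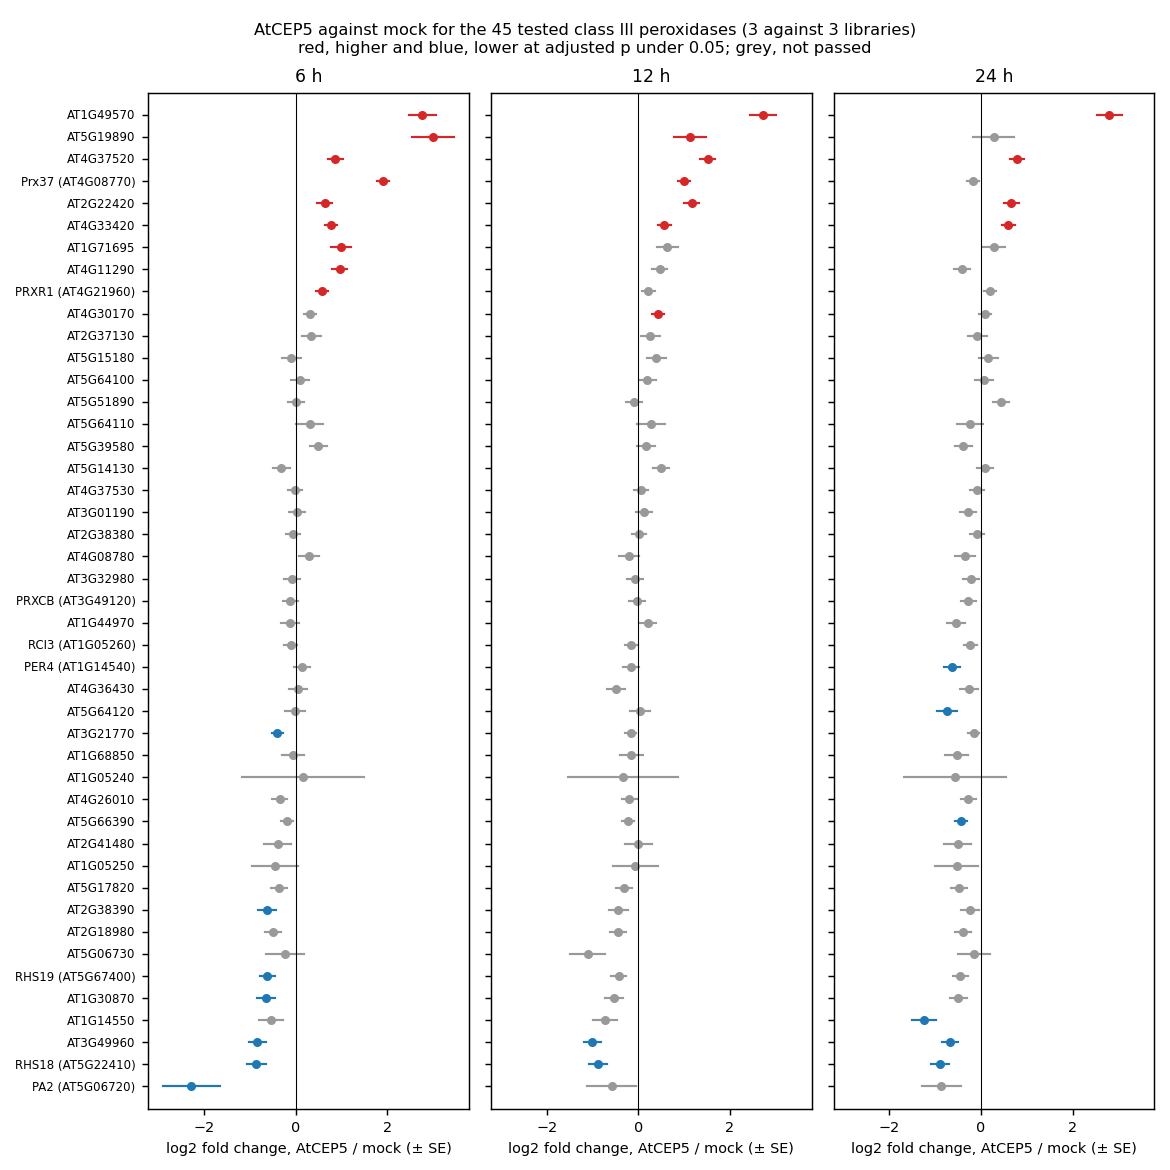
Log2 fold change of AtCEP5 over mock (± SE) for the 45 tested members at 6, 12 and 24 h, with 3 libraries a group, in red where higher and in blue where lower at an adjusted p under 0.05. AT1G49570 stands near 2.8 at every time, while AT5G19890 and Prx37 stand at 3.01 and 1.90 at 6 h and near 0 at 24 h.

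Among the 10 members linked to the oxidative burst and defence, 9 were tested. At 6 h and at 12 h 1 of them, Prx37, was higher and none lower. At 24 h none was higher and 3 were lower, and all 9 had a log2 fold change below 0, with a median of −0.36. Of all genes tested, 5.94% and 6.71% were higher at 6 and 12 h, and 4.12% were lower at 24 h. Without mock replicate 1, 1 of the 9 was lower at 24 h and 7 lay below 0, with a median of −0.34.

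Prx37 (AT4G08770, chromosome 4, 5598037 to 5600398, minus strand, TAIR10.1) is an apoplastic peroxidase found in vascular bundles, and plants that overexpress it are dwarfed. It had 35.2, 37.3 and 42.8 CPM before treatment. Mock libraries had 85.7, 81.9 and 86.2 CPM at 6 h, 112, 139 and 126 at 12 h, and 111, 92.9 and 77.5 at 24 h. In AtCEP5 libraries it had 312, 289 and 349 CPM at 6 h, 237, 250 and 267 at 12 h, and 83.9, 85 and 80.6 at 24 h. Both courses lay above the start in every library, the groups did not overlap at 6 and 12 h, and the AtCEP5 libraries lay within the mock range at 24 h. The log2 fold change over mock was 1.90 ± 0.13 (SE, adjusted p = 6.49e-09, 3.74-fold) at 6 h, 1.0 ± 0.13 (adjusted p = 1.26e-05, 2.0-fold) at 12 h and −0.17 at 24 h, which did not pass. Whether the effect of AtCEP5 differed between times was tested as a contrast of the same edgeR fit. For Prx37 the log2 effect at 24 h minus that at 12 h was −1.17 (adjusted p = 0.014), and minus that at 6 h it was −2.08 (adjusted p = 1.9e-06). It was the 1 member that passed in each of these contrasts, where 0.015% and 0.01% of all genes passed, and 8 and 7 members had an unadjusted p under 0.05. The call between 24 and 12 h was lost in fits that left out AtCEP5 replicate 2 or 3 of 24 h, mock replicate 1 or 3 of 12 h, or mock replicate 1 of 24 h. Between 12 and 6 h no member passed in edgeR (0.00502% of all genes), 5 had an unadjusted p under 0.05, and DESeq2 and limma on log2(FPKM + 1) each called 1.

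Its neighbour AT4G08780 (chromosome 4, 5604105 to 5608290, plus strand) encodes a protein 92.8% identical to Prx37. It had 2.44 to 6.82 CPM before treatment, and at 6 h 10.4, 12.2 and 11.9 CPM with mock and 13.7, 11.9 and 16.5 CPM with AtCEP5, with overlapping groups. Its log2 fold change over mock was 0.29, −0.20 and −0.36 at 6, 12 and 24 h and passed at no time. Nearly all 100-base stretches of the 2 genes are found nowhere else in the reference (99.8% and 99.7%). Of 50-base stretches this holds for 93.9% and 92.6%. Most reads of such lengths can thus be told apart, though the read length is not given here.

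The 250 bases before the annotated starts of Prx37 and AT4G08780 are printed from RefSeq (TAIR10.1) because the 2 genes are close copies whose levels with the peptide parted. Capitals mark the longest run of letters that both share, 31 bases long, at 140 to 110 bases before the start of Prx37 and 190 to 160 bases before that of AT4G08780. Over all 1275 pairs of members the median longest run is 9 bases, and 1 pair shares a longer run. The windows are chr4:5600399-5600648 on the minus strand and chr4:5603855-5604104 on the plus strand.
Prx37: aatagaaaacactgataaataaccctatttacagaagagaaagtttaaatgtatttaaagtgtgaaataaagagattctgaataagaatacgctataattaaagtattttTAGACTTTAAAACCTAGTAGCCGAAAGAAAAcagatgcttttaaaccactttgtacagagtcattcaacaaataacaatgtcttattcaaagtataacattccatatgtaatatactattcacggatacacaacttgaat
AT4G08780: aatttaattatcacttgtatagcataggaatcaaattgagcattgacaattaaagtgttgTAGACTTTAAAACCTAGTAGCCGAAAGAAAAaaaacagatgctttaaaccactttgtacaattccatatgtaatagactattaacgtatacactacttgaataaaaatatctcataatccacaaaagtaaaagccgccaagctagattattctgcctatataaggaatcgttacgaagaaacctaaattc

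PER4 (AT1G14540) and AT1G14550 are neighbours on chromosome 1, and both were lower with AtCEP5 at 24 h. AT1G14550 had 16.5, 10.4 and 8.58 CPM with mock and 6.07, 3.96 and 4.86 CPM with AtCEP5 at 24 h, against 9.58, 7.92 and 14.9 before treatment. Every AtCEP5 library at 24 h lay below every mock library and below every library before treatment. The log2 fold change over mock was −1.25 ± 0.27 at 24 h (adjusted p = 0.00424, 2.37-fold lower), and it passed without any 1 of the 6 libraries. At 6 and 12 h it was −0.54 and −0.72, which did not pass, though at 6 h it passed with the replicate block (−0.56, adjusted p = 0.0281). PER4 had 47.8, 34.9 and 28.2 CPM with mock and 22.6, 21.1 and 27.3 CPM with AtCEP5 at 24 h, a log2 fold change of −0.64 (adjusted p = 0.0259) that was lost in 4 of 6 fits that left out 1 library and was −0.41 without mock replicate 1.

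AT5G64120, a peroxidase of lignification and pathogen response, was the third member of the group lower at 24 h. It had 385, 299 and 255 CPM with mock and 218, 173 and 173 CPM with AtCEP5 (log2 −0.74, adjusted p = 0.0388). The value was −0.56 (adjusted p = 0.188) without mock replicate 1. The groups did not overlap, but the call was lost in 5 of 6 fits without 1 library. PRXCB (AT3G49120), a wall peroxidase that makes hydrogen peroxide in defence and affects root cell elongation, had 585, 772 and 755 CPM with mock and 583, 648 and 720 CPM with AtCEP5 at 6 h. Its groups overlapped at 6, 12 and 24 h, and its log2 fold change was −0.11, −0.02 and −0.28, none of which passed. Its copy PRXCA (92.7% identical protein) had 25 reads over all libraries, and 12 libraries held none, so no level was compared.

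The 7 members linked to root hairs had a median log2 fold change of −0.62, −0.43 and −0.53 at 6, 12 and 24 h, and 6, 7 and 7 of the 7 lay below 0. Those that passed were all lower with AtCEP5, 4 at 6 h, 2 at 12 h, 2 at 24 h and 5 on the average. The shares of all genes that were lower were 5.33%, 5.41%, 4.12% and 15.5%. Without mock replicate 1, none passed at 24 h and the median was −0.17. AT3G49960, enriched in root hair cells, had 46.9, 46.8 and 64.8 CPM with mock and 27.6, 30.5 and 30.4 CPM with AtCEP5 at 6 h. At 12 h it had 51.5, 50.2 and 50.1 CPM with mock and 20.8, 24.7 and 30.3 with AtCEP5, and at 24 h 99.1, 75.5 and 60.6 against 42.8, 52.9 and 51. The groups did not overlap at any time. Against mock it differed on the log2 scale by −0.84 ± 0.18 (adjusted p = 0.00345), −1.01 ± 0.18 (0.000589) and −0.68 ± 0.18 (0.0179) at 6, 12 and 24 h, the last of which had an adjusted p of 0.136 without mock replicate 1 and 0.11 without AtCEP5 replicate 1.

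RHS18 (ROOT HAIR SPECIFIC 18, AT5G22410) had 52.3 to 58.1 CPM before treatment, above all later libraries but mock 24 h replicate 1. It had 31.6, 32.0 and 38.1 CPM with mock and 17.9, 18.9 and 19.3 CPM with AtCEP5 at 6 h. At 12 h the values were 27.5, 26.2 and 34.4 CPM against 17.4, 14.3 and 16.3, and at 24 h 61.6, 34.4 and 27.7 CPM against 20.1, 22.3 and 23.8. Every AtCEP5 library lay below every mock library of its time. Against mock RHS18 stood on the log2 scale at −0.86 ± 0.20 (adjusted p = 0.00637), −0.88 ± 0.20 (0.00505) and −0.90 ± 0.20 (0.00527). The 24 h value was −0.49 (adjusted p = 0.0541) without mock replicate 1, the library at 61.6 CPM, and at 12 h the adjusted p was 0.0544 without mock replicate 3.

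The 250 bases before RHS18 (chr5:7426060-7426309, plus strand) are shown because they hold the root hair element, a pattern known from the promoters of root hair genes. AT3G01190 (chr3:68666-68915, minus strand) is the other member with a match and is not in the root hair group. Capitals mark the match in each, at 92 to 77 bases before the start of RHS18 and 246 to 230 before that of AT3G01190.
RHS18: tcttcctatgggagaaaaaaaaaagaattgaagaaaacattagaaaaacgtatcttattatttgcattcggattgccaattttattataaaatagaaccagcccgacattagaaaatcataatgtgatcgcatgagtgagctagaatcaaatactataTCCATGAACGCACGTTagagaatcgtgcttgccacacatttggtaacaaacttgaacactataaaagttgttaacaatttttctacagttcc
AT3G01190: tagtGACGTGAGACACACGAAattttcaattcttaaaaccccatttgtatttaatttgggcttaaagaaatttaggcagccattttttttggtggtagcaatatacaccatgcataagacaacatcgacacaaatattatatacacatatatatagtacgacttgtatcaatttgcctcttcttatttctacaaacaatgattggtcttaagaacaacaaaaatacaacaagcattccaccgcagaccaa
On both strands, 0.75% of 27443 promoters of this length and 2 of the 51 members hold the element, including 1 of the 7 in the root hair group. AT3G01190 had 537, 524 and 564 CPM with mock and 535, 550 and 573 CPM with AtCEP5 at 6 h, and its log2 fold change over mock was 0.03, 0.13 and −0.28, none of which passed. A match in these letters is a description and not a shown binding site.

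RHS19 (AT5G67400) and AT1G30870, also root hair members, were lower at 6 h, with log2 fold changes of −0.62 (adjusted p = 0.0126) and −0.65 (0.0319). RHS19 had 91.5, 87.4 and 112 CPM with mock and 58.9, 67.1 and 63.6 CPM with AtCEP5, without overlap. The calls were less firm than those above, lost for RHS19 if AtCEP5 replicate 1 or mock replicate 3 was left out and for AT1G30870 in 5 of 6 fits without 1 library. AT4G26010 passed on the average alone (log2 −0.28, adjusted p = 0.0322), a call lost in 10 of 18 fits without 1 library, and with the block at 6 h (−0.35, adjusted p = 0.0071). AT1G05240 and AT1G05250 have identical coding sequences, so their counts are uncertain, and neither passed.

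Of 9 root hair markers that are not peroxidases, 4, 2 and 1 were lower with AtCEP5 at 6, 12 and 24 h and none was higher. Beside them, 5.33%, 5.41% and 4.12% of all genes were lower. The 6 h calls were COBL9, EXPA7, EXPA18 and PRP3, genes of the hair cell wall and membrane, with log2 fold changes of −0.65, −0.63, −0.88 and −0.97. The transcription factors among the markers did not pass, with log2 values of 0.48, 0.43 and −0.11 for RSL2, −0.19, 0.38 and 0.03 for RSL4 and −0.29, 0.09 and 0.06 for RHD6. In all, 8, 6 and 7 of the 9 markers lay below 0. Without mock replicate 1 no marker passed at 24 h. The markers' summed level was 297 to 405 CPM with mock and 210 to 239 CPM with AtCEP5 at 6 h, 292 to 314 and 206 to 274 at 12 h, and 290 to 503 and 268 to 273 at 24 h. No marker was without reads in any group. In whole roots, fewer root hair cells and less RNA per cell cannot be told apart, and the part of cell number in the root hair peroxidases' levels was not tested.

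AT4G11290 and AT5G17820 are linked to UPB1 (UPBEAT1), a transcription factor that represses peroxidases where root cells pass from division to elongation. AT4G11290 had 66.1, 62 and 88.0 CPM with mock and 126, 131 and 163 CPM with AtCEP5 at 6 h. At 12 h it had 84.7, 106 and 78.2 CPM with mock and 113, 119 and 138 with AtCEP5, and at 24 h 121, 91.2 and 88.3 against 81.2, 66.6 and 76.7. AtCEP5 libraries lay above all mock libraries at 6 and 12 h and below them all at 24 h. The log2 fold change was 0.96 ± 0.17 at 6 h (adjusted p = 0.000676, 1.94-fold), and 0.46 and −0.42 at 12 and 24 h, which did not pass. The change of its effect from 6 to 24 h, −1.38, had an adjusted p of 0.052.

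AT5G17820 had 562, 502 and 682 CPM with mock and 433, 449 and 475 CPM with AtCEP5 at 6 h. AtCEP5 libraries were below mock at 6 h and 12 h, and the groups overlapped at 24 h, where mock replicate 3 had 383 CPM and the AtCEP5 libraries 370 to 424. Its log2 fold change was −0.36, −0.32 and −0.48 and passed at no time. Without mock replicate 1 the 24 h value was −0.20 (adjusted p = 0.548). AT5G17820 did pass on the average (−0.39 ± 0.10, adjusted p = 0.00487) and with the block at 6 h (−0.35, adjusted p = 0.0103). UPB1 itself had 15.8, 17.6 and 14.3 CPM with mock and 21.3, 24.8 and 26.9 CPM with AtCEP5 at 6 h, against 40.6 to 72.5 CPM before treatment. Over mock it stood at a log2 fold change of 0.62 (adjusted p = 0.0851), 0.83 (0.0168) and 0.97 (0.00885) at 6, 12 and 24 h.

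Of the 6 members linked to lignin and xylem, 5 were tested. AT2G22420 and AT4G33420 were higher at all 3 times, AT5G66390 was lower at 24 h, and AT2G41480 and AT5G51890 passed at no time. Of all genes tested, 2.5% were higher at all 3 times and 4.12% were lower at 24 h. AT2G22420, a peroxidase of lignified tissue, had 8.69, 7.09 and 8.47 CPM with mock and 11.6, 14.1 and 11.9 CPM with AtCEP5 at 6 h. The 12 h values were 6.99, 7.76 and 6.92 CPM against 17.8, 16.1 and 14.9, and at 24 h 8.75, 10.2 and 12.8 against 16.7, 16.3 and 17.4. No AtCEP5 library overlapped mock. Log2 fold changes were 0.63 ± 0.17 (adjusted p = 0.0162), 1.17 ± 0.17 (4.16e-05, 2.25-fold) and 0.66 ± 0.16 (0.0112). The 6 h call was lost if AtCEP5 or mock replicate 2 was left out, and the 24 h call without mock replicate 1 or 2.

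AT4G33420, a peroxidase of xylem lignification that overlaps AT4G33430 on the opposite strand, was 1.48- to 1.71-fold higher with AtCEP5. It had 82.8, 71.1 and 84.9 CPM with mock and 130, 131 and 148 CPM with AtCEP5 at 6 h, and 92.1, 113 and 105 against 185, 153 and 131 at 24 h, with no overlap at any time. On the log2 scale it stood above mock by 0.77 (adjusted p = 0.000566), 0.56 (0.00717) and 0.60 (0.00679). The last had an adjusted p of 0.0666 without AtCEP5 replicate 1. AT5G66390, needed for lignin synthesis, had 177, 142 and 118 CPM with mock and 120, 104 and 100 CPM with AtCEP5 at 24 h (log2 −0.43, adjusted p = 0.0487), with groups that overlapped and a call lost in 5 of 6 fits without 1 library (−0.27 without mock replicate 1). None of 6 xylem markers passed at any time in edgeR, with 1, 0 and 0 at an unadjusted p under 0.05, and their summed level was 191 to 234 CPM with mock and 168 to 261 CPM with AtCEP5 over the 3 times. Of 5 endodermis markers CASP5, a protein of the Casparian strip domain, was higher at each time (log2 1.08, 1.3 and 1.13). The other 4 lay below 0 at 6 and 24 h (3 at 24 h without mock replicate 1), and CASP4 was lower on the average (−0.28, adjusted p = 0.0489). The summed level of the 5 was 151 to 254 CPM with mock and 158 to 196 with AtCEP5.

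The largest fold changes came from members with no role group here, 22 tested of 26. In this group 5 were higher and 3 lower at 6 h, 4 and 0 at 12 h, 2 and 0 at 24 h, and 6 and 4 on the average. Among all genes 5.94% were higher and 5.33% lower at 6 h, and 6.71% and 5.41% at 12 h. At 24 h these shares were 3.7% and 4.12%, and on the average 14.8% and 15.5%. The 24 h calls, AT1G49570 and AT4G37520, were kept without mock replicate 1. AT1G49570 (chromosome 1, 18346958 to 18349049, plus strand) had 3.68, 2.63 and 5.36 CPM with mock and 29.0, 27.4 and 23.9 CPM with AtCEP5 at 6 h. At 12 h it had 6.37, 5.47 and 4.41 CPM with mock and 47.5, 31.2 and 27.8 with AtCEP5, and at 24 h 10.6, 6.84 and 4.57 against 56.8, 45 and 50.9. Before treatment it had 2.58, 5.44 and 4.72 CPM, so each AtCEP5 library stood above every other library of the series. Against mock its log2 fold change was 2.77 ± 0.30 (adjusted p = 2.8e-06, 6.81-fold), 2.72 ± 0.28 (1.1e-06, 6.57-fold) and 2.80 ± 0.28 (1.54e-06, 6.95-fold). It passed at each time without any 1 library, and with a mean of 12.8 FPKM it ranked 32nd in level among the 51 members.

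AT5G19890 had the largest fold change of the tested members at 6 h. It had 0.668, 0.810 and 0.778 CPM with mock and 6.34, 4.84 and 7.08 CPM with AtCEP5 at 6 h. The 12 h libraries held 5.51, 6.06 and 3.78 CPM with mock and 11.4, 10.1 and 12.1 CPM with AtCEP5, and at 24 h 2.89, 0.542 and 1.0 against 2.22, 1.63 and 1.44. Mock libraries at 12 h stood well above those at 6 h, and the groups overlapped at 24 h. Its log2 fold change was 3.01 ± 0.46 at 6 h (adjusted p = 0.000124, 8.04-fold), from 25 reads in the mock libraries and 237 in the AtCEP5 libraries. At 12 h it was 1.13 ± 0.36 (adjusted p = 0.0388), lost in all 6 fits without 1 library (0.0603 to 0.168), and at 24 h 0.28, which did not pass. The change of its effect from 6 to 24 h, −2.73 on the log2 scale, did not pass in edgeR (adjusted p = 0.386).

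**Figure D3:**
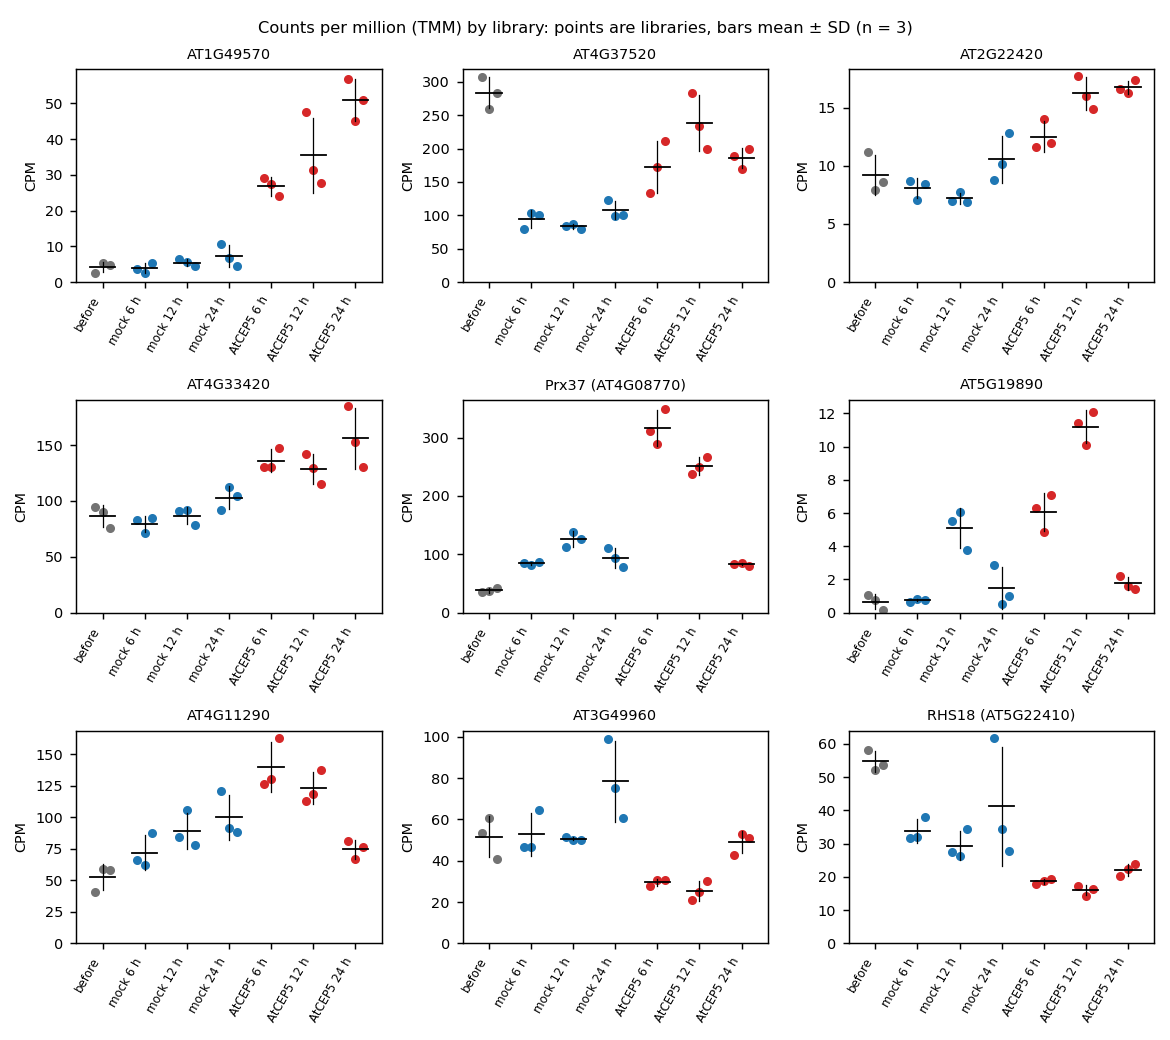
CPM in each library (points) with the mean and SD (bars, n = 3) for 9 members in the 7 groups, each panel starting at 0. AtCEP5 libraries of AT1G49570 lie at 23.9 to 56.8 CPM against 2.63 to 10.6 with mock, and AT4G37520 with mock lies at 78.9 to 123 CPM against 260 to 307 before treatment.

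AT4G37520 (chromosome 4, 17631500 to 17633249, plus strand) had 307, 260 and 284 CPM before treatment. Mock libraries had 78.9, 104 and 101 CPM at 6 h, 83.9, 86.9 and 79.9 at 12 h, and 123, 99.6 and 99.8 at 24 h. In AtCEP5 libraries it had 133, 173 and 212 CPM at 6 h, 283, 233 and 200 at 12 h, and 189, 170 and 199 at 24 h. It was thus lower than at the start in all 9 mock libraries, and AtCEP5 libraries lay above mock at every time. On the log2 scale its difference from mock was 0.86 ± 0.16 (adjusted p = 0.000863), 1.52 ± 0.16 (1.52e-06, 2.86-fold) and 0.79 ± 0.16 (0.00241), and it passed at each time without any 1 library.

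The next gene, AT4G37530 (chromosome 4, 17634696 to 17636401, plus strand), encodes a protein 89.4% identical to that of AT4G37520. It had 80.3 to 88.6 CPM before treatment, 78.5, 93.8 and 91.3 CPM with mock and 73.2, 90.6 and 95.8 CPM with AtCEP5 at 6 h. Its log2 fold change over mock was −0.02, 0.05 and −0.09, none of which passed. All 100-base stretches of either gene are unique in the reference, as are 95.0% and 95.1% of 50-base stretches. With the counts of both genes summed, the log2 fold change of the pair was 0.51 (adjusted p = 0.0421), 1.02 and 0.40 (adjusted p = 0.149).

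The 250 bases before AT4G37520 (chr4:17631250-17631499) and AT4G37530 (chr4:17634446-17634695), both on the plus strand, are shown as the pair of members with the longest shared run. It is 32 bases long, in capitals, at 163 to 132 bases before the start of AT4G37520 and 232 to 201 before that of AT4G37530.
AT4G37520: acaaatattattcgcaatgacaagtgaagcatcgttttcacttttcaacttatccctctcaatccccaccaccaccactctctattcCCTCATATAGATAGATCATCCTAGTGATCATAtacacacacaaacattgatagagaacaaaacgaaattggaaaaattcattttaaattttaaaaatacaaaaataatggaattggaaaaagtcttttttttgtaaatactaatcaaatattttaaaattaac
AT4G37530: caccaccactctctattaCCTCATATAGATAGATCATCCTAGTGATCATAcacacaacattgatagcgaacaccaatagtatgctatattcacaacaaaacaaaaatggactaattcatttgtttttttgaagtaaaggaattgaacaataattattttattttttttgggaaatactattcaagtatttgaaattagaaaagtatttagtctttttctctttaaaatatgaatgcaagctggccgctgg

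PA2 (AT5G06720), a peroxidase of the wound response, was lower at 6 h on few reads. The AtCEP5 libraries had 1, 1 and 5 reads and the mock libraries 7, 13 and 10, or 0.0823, 0.0780 and 0.361 CPM against 0.585, 1.32 and 0.864 CPM. The log2 fold change was −2.28 ± 0.62 (adjusted p = 0.0179, 4.86-fold lower). It was lost without AtCEP5 replicate 1 or 2 or mock replicate 2 (adjusted p 0.0735 to 0.0965) and had an adjusted p of 0.073 by limma on log2(FPKM + 1). At 12 and 24 h it was −0.59 and −0.87, which did not pass. The other members of this group that passed at a single time were AT1G71695 (log2 0.99 ± 0.23 at 6 h, adjusted p = 0.0055), PRXR1 (0.57 at 6 h, 0.00656), AT2G38390 (−0.63 at 6 h, 0.0468), AT3G21770 (−0.40 at 6 h, 0.0252) and AT4G30170 (0.43 at 12 h, 0.043). AT2G38390 lost its call without any 1 of the 6 libraries, AT3G21770 in 4 of 6 such fits and AT4G30170 in 5 of 6. RCI3 (AT1G05260), a cationic peroxidase induced by cold, had 200 FPKM over all libraries and passed at no time.

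Of the 51 members, 20 lie next to another member, in 11 neighbour pairs. Of the pairs with both genes tested, 8 were compared. AT1G05240 and AT1G05250, with identical coding sequences, were not compared with each other. Within a library the ratio of reads of 2 neighbours needs no scaling between libraries. Its log2 value was compared between AtCEP5 and mock over the 3 times with a two-sided exact permutation test of libraries within each time, with 8000 arrangements and a smallest possible p of 0.00025. For 5 of the 8 pairs the p, adjusted over the 8 pairs, was under 0.05. Other neighbouring genes were not compared in this way, so no share of all pairs stands beside this count. On the average of the 3 times, 30.3% of all genes passed singly in edgeR's test. The ratio of AT4G37520 to AT4G37530 was higher with AtCEP5 by 1.06 on the log2 scale (exact p = 0.00025, adjusted 0.002), and that of Prx37 to AT4G08780 by 1.01 (p = 0.00175, adjusted 0.0035).

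The log2 ratio of Prx37 to AT4G08780 was 4.50, 4.59 and 4.40 with AtCEP5 and 3.03, 2.75 and 2.85 with mock at 6 h. At 24 h it was 2.29, 2.46 and 2.72 with AtCEP5 and 2.62, 2.48 and 1.78 with mock, with overlap. That of AT4G37520 to AT4G37530 was 1.79, 1.70 and 1.81 before treatment. At 12 h it was 1.89, 1.57 and 1.28 with AtCEP5 and 0.21, 0.05 and 0.15 with mock, so the mock libraries had nearly equal reads of both genes. The ratio of PER4 to AT1G14550 was higher by 0.63 (exact p = 0.0005, adjusted 0.002), that of AT2G38380 to AT2G38390 by 0.39 (p = 0.00075, adjusted 0.002) and that of AT5G64110 to AT5G64120 by 0.37 (p = 0.0135, adjusted 0.0216). AtCEP5 and mock libraries overlapped for the PER4 pair at 6 h, the AT2G38380 pair at 24 h and the AT5G64110 pair at 6 and 12 h. The ratios of PA2 to AT5G06730 (−0.78, exact p = 0.077), AT1G05250 to RCI3 (−0.16, p = 0.41) and AT5G64100 to AT5G64110 (0.01, p = 0.945) did not pass.

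**Figure D4:**
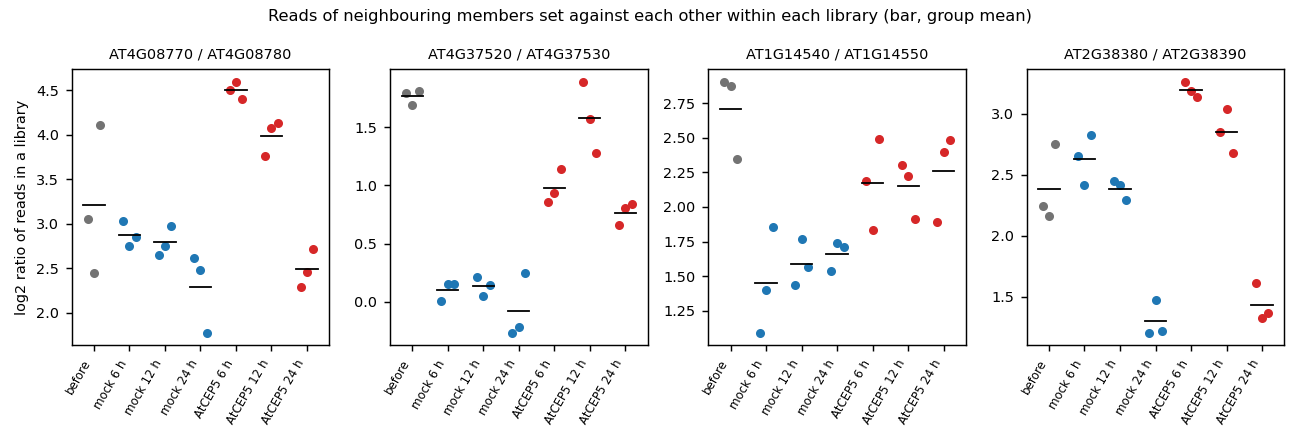
Log2 ratio of the reads of 4 neighbour pairs of members within each library (points) with group means (bars), in the 7 groups. AtCEP5 libraries lie above mock in the AT4G37520 pair at every time, and in the Prx37 pair at 6 and 12 h but not at 24 h.

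AT2G38380 and AT2G38390 are likewise 89.4% identical in protein and share a run of 25 bases in their upstream windows. The other adjacent pairs compared share runs of 7 to 10 bases. Other motifs were counted in the members' promoters as well, on both strands. CACGTG, the core of the G-box, is in 6.49% of all promoters and in none of the 51. ACTCAT is in 12.31% of all promoters and in 8 members, TGTCTC, an auxin response element, in 10.95% and 2 members, and TTGACC or TTGACT, the W-box bound by WRKY factors, in 28.41% and 13 members.

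Comparisons with the samples before treatment give the course of each member over time. Those of mock and AtCEP5 share the same 3 libraries at 0 h, so they are not independent of each other. With mock, 18 members passed at 6 h (40.0%, 6 higher and 12 lower), and so did 38.7% of all genes (18.2% higher and 20.5% lower). At 12 h 23 passed (51.1%, 9 higher and 14 lower) against 37.4% of all genes (17.7% and 19.7%), and at 24 h 25 passed (55.6%, 13 higher and 12 lower) against 35.1% (16.6% and 18.5%). With AtCEP5, 26 passed at 6 h (57.8%, 10 higher and 16 lower) against 27.7% of all genes (13.1% higher and 14.6% lower). At 12 h 22 passed (48.9%, 10 higher and 12 lower) against 23.7% (10.5% and 13.2%), and at 24 h 26 passed (57.8%, 12 higher and 14 lower) against 28% (12.8% and 15.2%). The mock count at 6 h was thus near that of all genes. Without the third library before treatment, the one high in shoot markers, the counts were 18, 21 and 21 with mock and 24, 22 and 24 with AtCEP5, and without mock replicate 1 of 24 h the last mock count was 26.

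In mock, 5 members (11.1%) were higher than the start at all 3 times, against 11.6% of all genes, and 10 (22.2%) were lower, against 13.3%. Of those lower, AT1G05240, AT5G51890 and AT5G64110 lost their call at 1 time or more without the second library before treatment. The excess over all genes thus rests partly on that library. The 5 higher members were the neighbours AT2G38380 and AT2G38390, Prx37, AT4G08780 and AT4G11290. AT2G38390 had 100, 99.5 and 56.4 CPM before treatment, and with mock 158, 210 and 169 at 6 h and 742, 482 and 441 at 24 h. With AtCEP5 it had 110, 112 and 125 CPM at 6 h and 456, 478 and 476 CPM at 24 h. Its log2 change since the start in mock was 1.07, 1.46 and 2.7 (adjusted p = 5.14e-09 at 24 h, 6.5-fold). AT4G08780 rose by 1.34, 2.0 and 2.07 in mock and by 1.64, 1.80 and 1.72 with AtCEP5.

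Markers of shoot tissue and endodermis were also lower than at the start, where 1 library held 2031 CPM of shoot markers. In mock, 5, 6 and 2 of 6 tested shoot markers were lower at 6, 12 and 24 h (medians −1.83, −2.11 and −0.65), and 4, 4 and 2 of 5 endodermis markers were (medians −0.48, −0.58 and −0.39). With AtCEP5, 4, 3 and 4 shoot markers and 5, 4 and 4 endodermis markers were lower. Their part in the members' changes since the start was not tested.

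AT2G37130, of the defence group, had 1682, 2136 and 1707 CPM before treatment and 505, 587 and 744 CPM with mock at 6 h. Every later library lay below the start, and its log2 change in mock was −1.59, −1.45 and −1.19. AT5G39580 (−1.48, −1.49 and −0.82), AT5G64110 (−1.33, −1.59 and −0.81), AT5G64120 (−0.85, −1.29 and −1.08) and AT5G14130 (−1.20, −1.58 and −0.72) also fell in mock at all 3 times. The log2 change of AT4G37520 was −1.58, −1.76 and −1.4 in mock, and with AtCEP5 it was −0.72, −0.25 (adjusted p = 0.271) and −0.61.

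With AtCEP5, 8 members (17.8%) passed as higher than the start at all 3 times, as did 6.46% of all genes. Lower at all 3 times were 10 members, among them RHS18 and AT1G05240, the latter on 1 library. The share of all genes lower at all 3 times was not computed, and at single times it was 14.6%, 13.2% and 15.2%. AT1G49570 rose by 2.64, 3.05 and 3.57 on the log2 scale, whereas in mock its change was −0.12, 0.34 and 0.77, of which the last passed. AT5G19890 rose by 3.20, 4.08 and 1.41 with AtCEP5, and in mock its change was 0.19, 2.94 and 1.13, of which the 12 h value passed. AT2G22420 and AT4G33420 were above the start with AtCEP5 and passed at no time in mock. RHS18 fell with AtCEP5, with log2 changes of −1.55, −1.77 and −1.31. Without the second library before treatment, AT2G22420 lost its call at 6 h and AT5G19890 at 24 h with AtCEP5, and AT5G64110 lost that at 24 h in mock.

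AT1G05240 was called lower than the start in both courses on 1 library. It had 0.644, 54.2 and 0.866 CPM before treatment and 0.405 to 3.44 CPM in all later libraries. Without the second library before treatment its log2 change in mock was 0.08 (adjusted p = 0.937), 0.74 (0.36) and 1.27 (0.102), and with AtCEP5 0.24, 0.41 and 0.69, none of which passed. The counts of members called were then 18, 20 and 22 in mock and 23, 22 and 24 with AtCEP5.

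**Figure D5:**
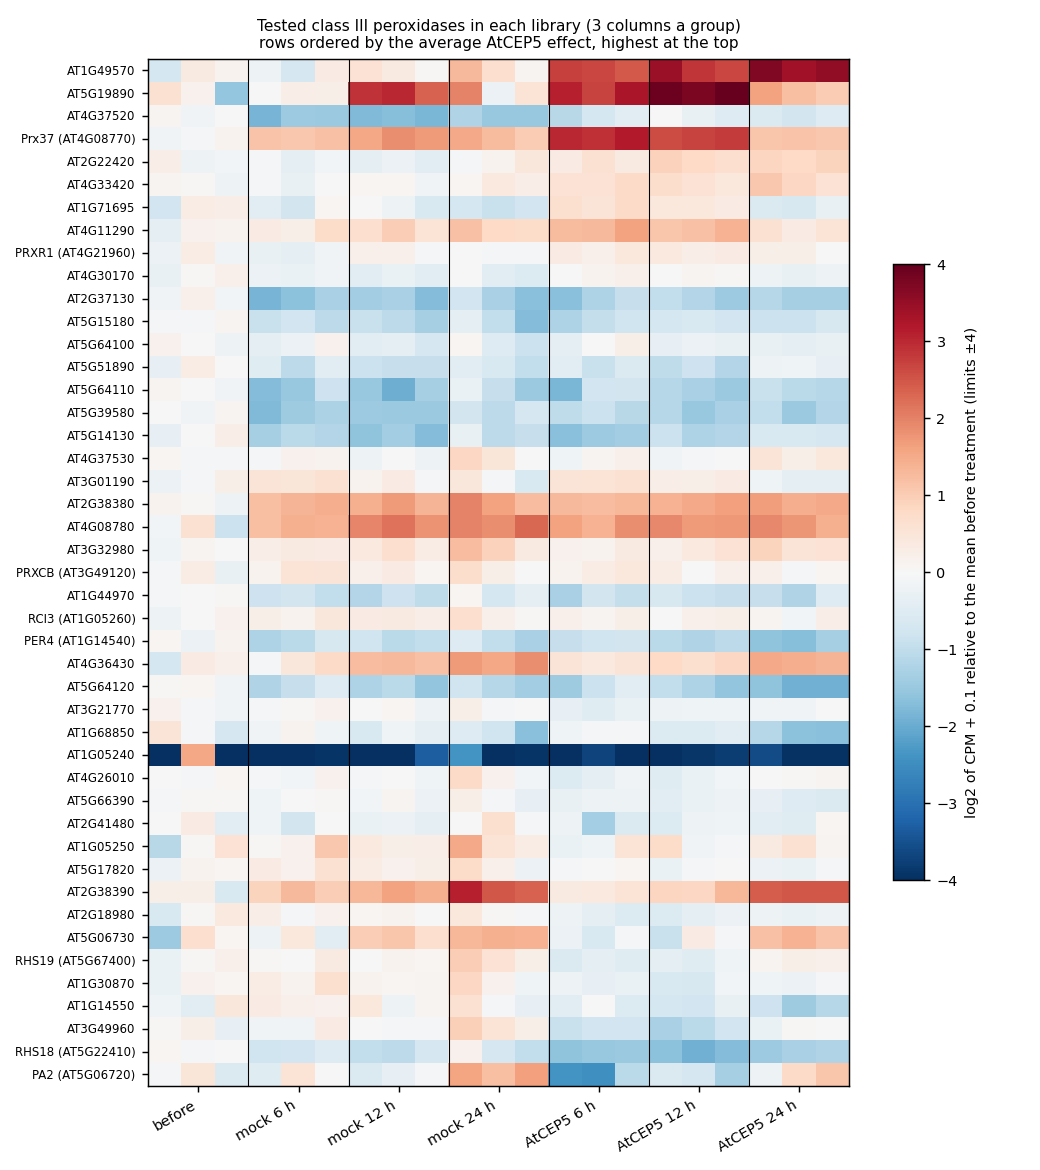
Log2 of CPM + 0.1 relative to the mean before treatment for the 45 tested members (rows, ordered by the average AtCEP5 effect) in each of the 21 libraries (columns, 3 a group), with red for higher and blue for lower. AT1G49570 is red in the AtCEP5 columns, AT2G38390 is red in both courses at 24 h, and AT1G05240 stands out in 1 library at the start, with 54.2 CPM.

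Other enzymes of the same chemistry were read from lists of related genes. Of 10 NADPH oxidases (RBOH), which make the superoxide that gives rise to hydrogen peroxide in the wall, 8 were tested. RBOHB was higher at 6 h (log2 1.4, adjusted p = 6.84e-05) and 12 h (0.74, adjusted p = 0.0146) and near mock at 24 h (0.01). RBOHC, which acts in root hair growth, was lower on the average (−0.60, adjusted p = 0.00162). Of 17 laccases, oxidases of lignin polymerisation that use oxygen, 16 were tested, none was higher, and 2, 3 and 4 were lower at 6, 12 and 24 h. At these times 5.33%, 5.41% and 4.12% of all genes were lower, and 5.94%, 6.71% and 3.7% were higher. LAC16 had log2 fold changes of −1.11, −1.53 and −1.56 and LAC8 of −0.55, −0.76 and −0.64, while LAC1 was lower at 12 h (−0.91) and 24 h (−1.23) and LAC5 at 24 h (−0.89). LAC3 (−0.30) and LAC13 (−0.33) were lower on the average alone, where 15.5% of all genes were lower. Of 12 superoxide dismutases, catalases and ascorbate peroxidases 11 were tested, and none was lower. CAT1 was higher at each time (0.92, 1.02 and 1.03) and CAT3 at 6 h (0.68). CAT2 (0.24) and CAT3 (0.40) were also higher on the average, where 14.8% of all genes were higher. Of the 6 root meristem markers, WOX5 was higher at 24 h (0.82, adjusted p = 0.0372) and on the average, and CYCB1;1 was lower on the average (−0.34, adjusted p = 0.0244). At 6, 12 and 24 h 5, 4 and 4 of the 6 lay below 0, with medians of −0.15, −0.27 and −0.07. The 24 h median was −0.13 without mock replicate 1. Without mock replicate 1 of 24 h, LAC5 did not pass at that time (adjusted p = 0.194), and LAC1, LAC8, LAC16, CAT1 and WOX5 did.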

How the data were processed

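The files hold counts per gene and FPKM of 21 root libraries, both as the authors deposited them. Poly-A libraries were prepared with a TruSeq kit from TRIzol-extracted, DNase-treated total RNA, per the labels. Reads were processed with HTSeq, StringTie 2.1.3 and STAR 2.7.8a, per the submitters' processing notes. Neither the genome build nor strand-specific counting is stated in the sources used here. All 51 members have the same start and end in TAIR10.1 as in the files, and coordinates and sequences are those of that reference. Compared with FPKM computed here from the counts, all 461492 nonzero deposited FPKM were larger by a factor of 10, and they were divided by 10.

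The test was the quasi-likelihood test of edgeR 4.0.16 in R 4.3.3 on the deposited counts, scaled by TMM and filtered for low counts by group, in a single fit of 7 group means with 14 residual degrees of freedom. Benjamini-Hochberg adjustment covered the 19938 genes tested, and a member was called at an adjusted p under 0.05. Printed log2 fold changes are the first group minus the second, ± SE, and CPM use TMM factors. Alternatives were DESeq2 1.42.0, its size factors (RLE), other filters, limma 3.58.1 on log2 FPKM with a pseudocount of 0.1 or 1, a replicate block, copies summed and libraries left out. The scripts were tested on simulated data.

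Values by library are given for members that passed with a log2 fold change of at least 1 in size at 1 time or more and had a group mean of at least 1 CPM, and for Prx37, PRXCA, PRXCB, AT4G11290 and AT5G17820 whatever their p. Values by library of other members, such as RHS18, AT4G33420, AT4G08780, AT4G37530 and AT2G38390, were added after their values were seen. The members, role groups and gene lists were chosen with earlier results of these data known.

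AtCEP5 and mock libraries of the same replicate number at 6 h had correlated deviations from their group means (0.182, 0.117 and 0.241, each over 0.1), which met the rule for pairing from the data alone, since no label says what a number shares. Unmatched numbers at 6 h had −0.191 to 0.00323. At 24 h some unmatched libraries also exceeded 0.1. AtCEP5 replicate 3 and mock replicate 1 had 0.354, and AtCEP5 replicate 1 and mock replicate 2 had 0.241. The pairing at 6 h is therefore uncertain.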

Additional observations from a re-analysis of the deposited data

Results flagged for a closer look

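Prx37 (AT4G08770) stood out because the effect of AtCEP5 on it differed between times in the test of that difference. On the log2 scale its effect at 24 h minus that at 12 h was −1.17 (edgeR's quasi-likelihood test, adjusted p = 0.014), and its effect at 24 h minus that at 6 h was −2.08 (adjusted p = 1.9e-06). The call between 24 and 12 h was lost in some of the fits that left out 1 library. All 3 AtCEP5 libraries lay above all 3 mock libraries at 6 and 12 h and within the mock range at 24 h.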

How the results depend on the processing

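Of the counts of members called, 234 alternative values were within 1.5 times the reported count and 20 were not. With only the groups compared in the fit, the counts for AtCEP5 against mock were 17 at 12 h and 4 at 24 h, and for mock against before treatment 16 at 24 h. With the replicate block on the 6 libraries of a time they were 18 at 12 h and 4 at 24 h, times at which the numbers did not pair the samples (correlations of 0.0301, −0.0495 and 0.0296, and of −0.194, 0.0919 and −0.14). With the replicate number as a block in the fit of all 21 libraries, 15, 9 and 8 members passed at 6, 12 and 24 h and 22 on the average. Leaving out 1 library gave counts for AtCEP5 against mock of 11 to 14 at 6 h, 6 to 9 at 12 h, 4 to 15 at 24 h and 21 to 23 on the average. For the effect at 24 h minus 12 h this gave 0 to 1, and for 24 h minus 6 h 1 to 2. For 12 h minus 6 h, DESeq2 and limma on log2(FPKM + 1), with and without a filter, called 1. For 24 h minus 6 h, DESeq2 called 3, and no filter on low counts, limma on log2(FPKM + 0.1) and limma on log2(FPKM + 1) called 2 each. The cause of these changes was not tested, except that a fit of fewer libraries estimates the spread from fewer samples.

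Of the 16, 9 and 10 calls against mock, 10, 6 and 3 were kept in every fit without 1 library. Among single members, 522 alternative values kept direction and side of the threshold, 24 no longer passed, 8 newly passed and 3 changed sign, none of which had passed: AT5G19890 at 24 h (−0.14 without mock replicate 2, in a range of −0.14 to 1.19 over fits without 1 library) and PRXCB at 12 h (0.07 without AtCEP5 replicate 2 or mock replicate 2, in a range of −0.086 to 0.0727). Without both libraries high in ribosomal RNA, an alternative added after seeing the data, 12, 8 and 9 members passed. The counts and medians of gene lists at 24 h without mock replicate 1 were likewise added after seeing the data. RLE scaling moved members by at most 0.0212 on the log2 scale. With 10334319 counts or more a library, members at a few reads (PA2, AT5G19890 with mock) are limited by depth.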
